A study of Mus musculus with 6 samples.

Results

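The genes described here encode chemokines, adhesion molecules for leukocytes and the macrophage growth factor Csf1. They are 10 of the 24421 genes in the deposited table and were chosen by symbol: Ccl2, Ccl20, Cxcl1, Cxcl10, Cxcl12, Cxcl16, Cx3cl1, Vcam1, Icam1 and Csf1. Messenger RNA came from mouse proximal tubular epithelial cells in primary culture, which form the first, reabsorbing segment of the kidney tubule. There were 3 libraries labelled Atg5KO and 3 labelled Atg5F/F, the floxed control, and the cells of both groups had received 20 µM erastin2 for 24 h. Erastin2 blocks cystine uptake and can bring on ferroptosis, a death by lipid peroxidation, and ATG5 is needed to attach LC3 to the autophagosome membrane. No untreated cells were analysed here, so it cannot be told apart whether a difference between genotypes needs the drug or is there without it. The labels do not say how Atg5 was deleted, nor from which animal or culture each library came. The p-values therefore measure only the spread between these libraries, which may be technical.

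Injured tubule cells release chemokines, small proteins that form gradients and draw leukocytes through receptors on the leukocyte surface. Adhesion molecules of the immunoglobulin family then hold the arriving cells through integrins, and Csf1 keeps macrophages alive and dividing through its receptor Csf1r. Many of these genes are switched on by NF-kB or by interferon signalling, and many of their messenger RNAs are short-lived because AU-rich elements in the 3′ UTR bind decay factors of the Zfp36 family.

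The levels are FPKM, fragments per kilobase of gene scaled to the library's read total, so genes can be compared with each other. Read totals were 16922491 to 19724355 in the libraries labelled Atg5KO and 15528454 to 30004933 in the libraries labelled Atg5F/F. Atg5 itself averaged 12.5 ± 0.936 FPKM in the libraries labelled Atg5KO and 8.55 ± 0.538 FPKM in those labelled Atg5F/F (SD, n = 3 each), a log2 fold change of 0.50 (limma adjusted p = 0.000553). This value sums the whole gene and would not reveal a missing exon, so the labels could not be checked from it and every direction below rests on them. The libraries are called KO-labelled and F/F-labelled from here on.

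The stretches of promoter printed next are those of Cxcl10, Csf1 and Cxcl1, which between them hold most of the NF-kB matches found and cover called and uncalled genes. Sequences are the 250 bases before the RefSeq start of each gene on GRCm38.p6, on the gene's own strand: chr5:92348890-92349139 (minus strand) for Cxcl10, chr3:107760470-107760719 (minus strand) for Csf1 and chr5:90890995-90891244 (plus strand) for Cxcl1. Capitals mark every match to the NF-kB consensus, to the interferon response core (GAAA, any 2 bases, GAAA) and to the AP-1 motif TGANTCA.
Cxcl10: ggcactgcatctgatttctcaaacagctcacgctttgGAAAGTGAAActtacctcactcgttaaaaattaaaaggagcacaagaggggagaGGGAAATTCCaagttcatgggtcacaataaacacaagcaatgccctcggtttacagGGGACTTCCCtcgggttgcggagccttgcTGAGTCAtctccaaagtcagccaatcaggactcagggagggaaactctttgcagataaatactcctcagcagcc
Csf1: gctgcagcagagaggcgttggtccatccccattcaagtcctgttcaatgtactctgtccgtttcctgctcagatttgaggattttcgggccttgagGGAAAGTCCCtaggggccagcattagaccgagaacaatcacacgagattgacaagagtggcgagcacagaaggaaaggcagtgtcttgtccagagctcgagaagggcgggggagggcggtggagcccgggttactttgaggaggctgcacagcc
Cxcl1: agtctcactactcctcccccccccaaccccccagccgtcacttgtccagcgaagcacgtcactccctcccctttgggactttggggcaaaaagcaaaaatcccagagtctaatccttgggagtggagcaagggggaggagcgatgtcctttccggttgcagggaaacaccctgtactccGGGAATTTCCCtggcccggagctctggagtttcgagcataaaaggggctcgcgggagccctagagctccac

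**Figure D1:**
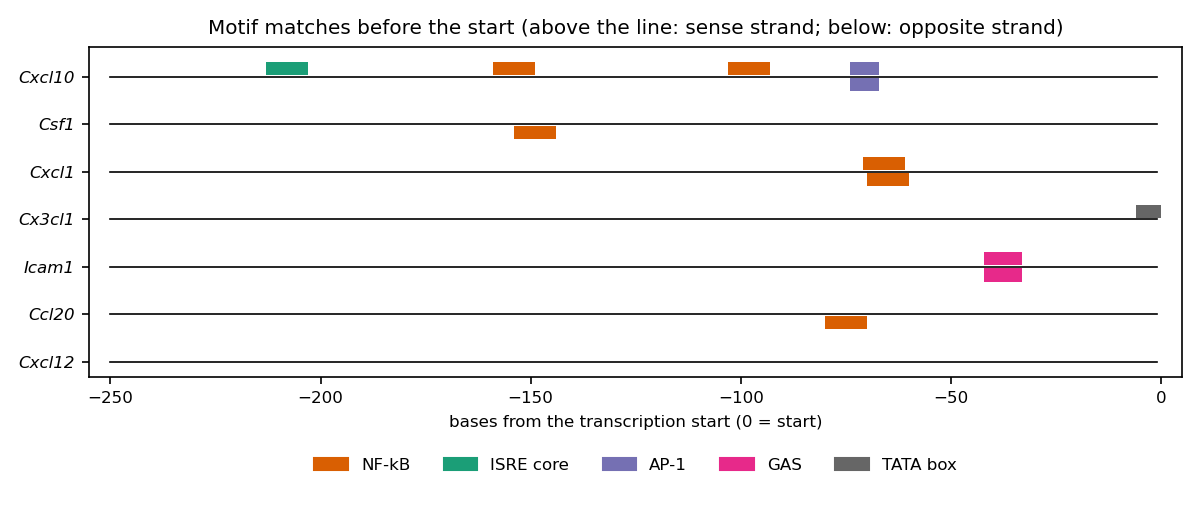
Motif matches in the 250 bases before the RefSeq start (x axis, bases from the start) for the 7 genes with a promoter sequence, boxes above the line for the sense strand and below it for the opposite strand. Cxcl10 carries 2 NF-kB matches, an interferon response core and an AP-1 match, whereas Csf1, Cxcl1 and Ccl20 carry NF-kB matches alone and Cxcl12 has no match in this window.

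RefSeq promoter sequences were matched for 7 of the 10 genes, and Ccl2, Cxcl16 and Vcam1 were not among them. Searched on both strands from 250 bases before to 50 bases after the start, the NF-kB consensus occurred in 4 of the 7 (Ccl20, Cxcl1, Cxcl10 and Csf1) and in 4.505% of 32851 promoters of the same length. In Cxcl10 the matches began 159 and 103 bases before the start, and in Csf1 the match began 154 bases before it. In Cxcl1 a match lay 71 bases before the start, and a match on the opposite strand overlapped it at 70 bases. Ccl20 had a single match 80 bases before the start. The interferon response core was found in Cxcl10, 213 bases before the start, and in 3.443% of all promoters. The AP-1 motif, also in Cxcl10, was in 7.808%, and the STAT motif TTCNNNGAA, found 42 bases before the start of Icam1, was in 8.298%. TATAAA, read on the sense strand alone, began 6 bases before the RefSeq start of Cx3cl1, was also found after the start of Icam1 and was in 8.319%. These matches are descriptions of the letters and show neither binding nor its absence.

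The 3′ UTRs were searched for the AU-rich pentamer ATTTA. Windows of 30 bases are shown for Cxcl1 and Ccl20, the genes with the most ATTTA for the length of the whole 3′ UTR, and for Ccl2 and Icam1 beside them. Coordinates are from GENCODE vM21 on GRCm38, all on the plus strand: chr5:90892602-90892631 for Cxcl1, chr1:83119055-83119084 for Ccl20, chr11:82037193-82037222 for Ccl2 and chr9:21028309-21028338 for Icam1. Capitals mark ATTTA.
Cxcl1: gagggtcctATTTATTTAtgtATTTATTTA
Ccl20: tgtaaagatATTTAatgttctgtttATTTA
Ccl2: tgatgccttaattaatattaaacttATTTA
Icam1: ccaactcttcttgatgtATTTAttaATTTA

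All 10 genes had at least 1 ATTTA in the 3′ UTR, as did 62.75% of annotated protein-coding genes with a 3′ UTR, whatever its length. Cxcl1 had 7 in 592 bases, a count reached by 0.465% of 2151 UTRs within 20% of its length, and it also held 2 copies of a longer element, ATTTA with TT on each side. Ccl20 had 5 in 450 bases, reached by 1.47% of 1978 UTRs of like length. Icam1 and Csf1 had 4 each, Vcam1 and Cxcl12 had 3 each, Cxcl10 and Cxcl16 had 2 each, and Ccl2 and Cx3cl1 had 1 each. The longer element was also present once in Cx3cl1 and in 7.129% of annotated protein-coding genes with a 3′ UTR, again whatever its length. Cxcl1, with the highest density of ATTTA, was not called between the genotypes. Ccl20, with the next highest, was too low for the main limma test.

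Between the genotypes, Ccl2, Cxcl10, Vcam1, Cxcl16 and Csf1 were higher in KO-labelled libraries, while Cxcl1, Cx3cl1 and Icam1 did not pass the test. Of the 10 genes, 8 reached 1 FPKM in 3 or more of the 6 libraries and were tested with limma on log2(FPKM + 1), adjusted by Benjamini-Hochberg over all 11559 tested genes. At an adjusted p under 0.05, 5 of the 8 were called higher, where 21.3% of all tested genes were (39.2% in either direction). None was called lower (0 of 8, against 17.9% of all tested genes), although 1 gene, Icam1, was lower at an unadjusted p under 0.05. The members and the lists below were chosen with earlier results of these data known, so such shares are descriptions alone. Ccl2, Cxcl10 and Vcam1 entered the test only through their KO-labelled libraries, so a difference in them was in part built in. A filter on the mean over all 6 libraries kept 7 of the genes and called 4 higher, against 21.2% of genes, with Cxcl10 left out. Without the filter all 10 genes could be tested among 18296, and again 5 were higher and 0 lower, against 12.9% and 10.4% of genes. On reads recovered from the FPKM values and fitted with voom, 5 of 9 were higher and 0 lower, against 17.8% and 18.4% of 15098 genes. The authors' deposited table places 5 of the 10 genes past an FDR of 0.05 as higher and 1 as lower, against 10.6% and 11.4% of its genes. The values of the 3 KO-labelled libraries did not overlap those of the 3 F/F-labelled libraries for 7 of the 10 genes, against 39.3% of the 18296 genes above 0. The 7 include Ccl20 and Cxcl12, whose nearest libraries had 1 read each and were set apart by the library totals alone. In such bulk RNA, fewer cells that express a gene and less RNA per cell cannot be told apart.

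**Figure D2:**
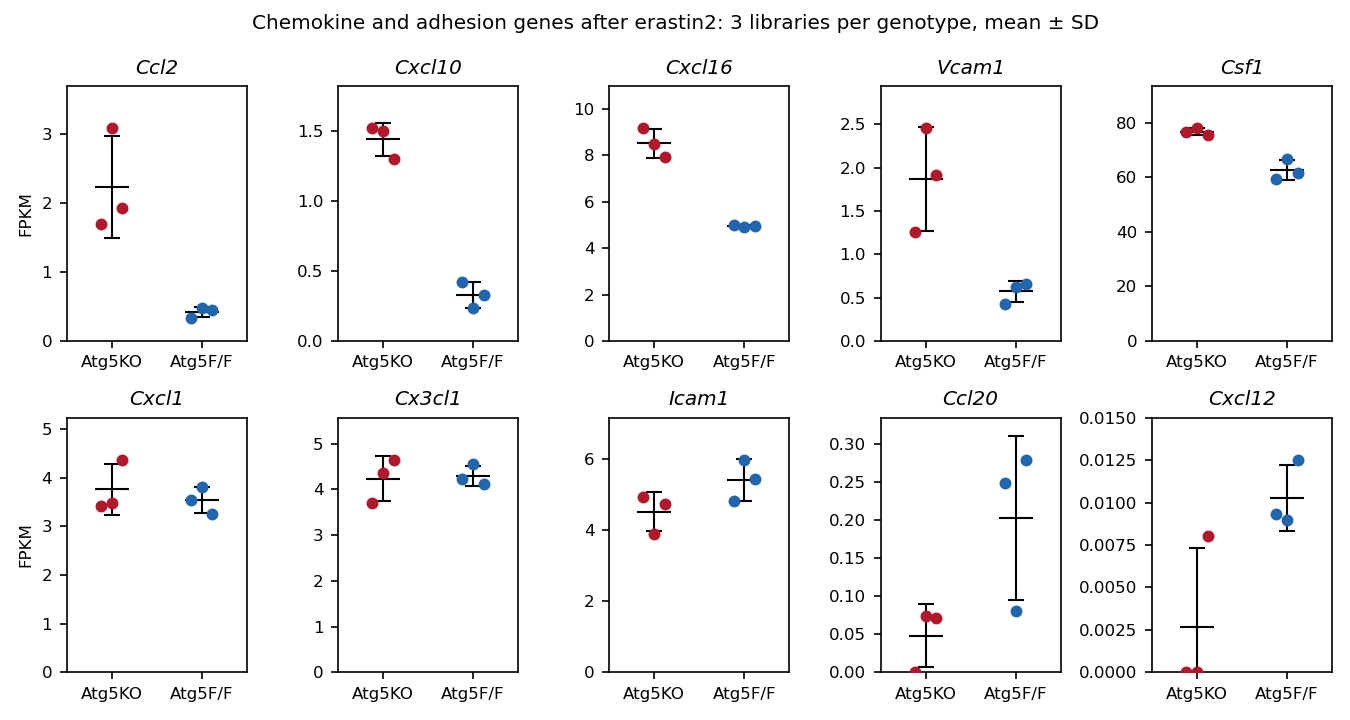
FPKM of each gene in every library (points; y axes start at 0 and differ between panels), with the mean and SD of 3 libraries per genotype, Atg5KO left and Atg5F/F right. The top row holds the 5 genes called higher in KO-labelled libraries, whose points do not overlap, and the bottom row the 3 uncalled genes followed by Ccl20 and Cxcl12, which lay too low to be tested.

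Among the CC chemokines, Ccl2 draws monocytes through Ccr2 (GRCm38 chr11:82035571-82037453, plus strand, 3 exons). Ccl2 had 1.70, 3.08 and 1.92 FPKM in KO-labelled libraries 1 to 3, resting on 27, 42 and 27 reads, against 0.331, 0.479 and 0.444 FPKM in F/F-labelled libraries, resting on 8, 6 and 8 reads. Every KO-labelled library stood above every F/F-labelled library, with KO-labelled replicate 2 the highest. The means were 2.23 ± 0.741 FPKM in KO-labelled and 0.418 ± 0.0777 FPKM in F/F-labelled libraries (SD, n = 3 each), and the log2 fold change on log2(FPKM + 1) was 1.17 (SE 0.151, 95% interval 0.82 to 1.51, limma adjusted p = 0.000476). This scale understates changes of low genes. With voom on the recovered reads the log2 fold change was 2.32 (interval 1.49 to 3.14, adjusted p = 9.47e-05). Relative to the library totals, the 96 reads of KO-labelled and the 22 reads of F/F-labelled libraries gave a ratio of 5.48 (95% exact interval 3.42 to 9.15, counting error only).

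Ccl20, which attracts lymphocytes and dendritic cells through Ccr6 (chr1:83116766-83119167, plus strand, 4 exons), was close to the limit of detection. It had 0, 1 and 1 reads in KO-labelled libraries against 6, 1 and 5 reads in F/F-labelled libraries, or 0, 0.0737 and 0.0716 FPKM in KO-labelled and 0.249, 0.0803 and 0.279 FPKM in F/F-labelled libraries. The groups did not overlap, but the nearest libraries had the same number of reads. The ratio of reads relative to library totals was 0.209, with an exact interval of 0.0227 to 0.940 that covers counting error only, and voom gave a log2 fold change of -1.71 (interval -3.37 to -0.047, adjusted p = 0.103). Ccl20 thus did not pass the test.

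Among the CXC chemokines, Cxcl10 attracts activated T cells through Cxcr3 and is induced by interferons (chr5:92346638-92348889, minus strand, 4 exons). It had 1.52, 1.5 and 1.31 FPKM in KO-labelled libraries, on 33, 28 and 25 reads, against 0.424, 0.234 and 0.326 FPKM in F/F-labelled libraries, on 14, 4 and 8 reads. The KO-labelled libraries lay close together and well clear of the others. Cxcl10 averaged 1.44 ± 0.120 FPKM in KO-labelled and 0.328 ± 0.0950 FPKM in F/F-labelled libraries, a log2 fold change of 0.88 (SE 0.0989, interval 0.66 to 1.11, limma adjusted p = 0.000224). With voom on reads it was 2.01 (interval 1.26 to 2.77, adjusted p = 0.000164). This is the gene whose promoter, printed above, holds both NF-kB matches and the interferon response core.

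Cxcl1 recruits neutrophils through Cxcr2 (chr5:90891241-90893115, plus strand, 4 exons). It had 3.42, 3.49 and 4.36 FPKM in KO-labelled libraries and 3.55, 3.80 and 3.26 FPKM in F/F-labelled libraries, so the groups overlapped. The log2 fold change was 0.065 (SE 0.0906, interval -0.14 to 0.27, limma adjusted p = 0.601). That interval leaves room for a modest change either way, and a missed threshold does not show equal levels. Cxcl1 and Cxcl10 lie on the same chromosome and both carry NF-kB matches before the start, yet only Cxcl10 passed the test; the difference between the 2 changes was not tested.

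Cxcl12, which holds stem cells and lymphocytes in place through Cxcr4 (chr6:117168535-117181367, plus strand, 4 exons), was at the limit of detection in these cells. It had 0, 0 and 1 reads in KO-labelled libraries and 2, 1 and 2 reads in F/F-labelled libraries. The largest of these corresponds to 0.0125 FPKM. The groups did not overlap, but the nearest libraries, at 0.00802 FPKM in KO-labelled and 0.00899 FPKM in F/F-labelled libraries, had 1 read each. The ratio of reads relative to library totals was 0.251 with an exact interval of 0.00531 to 2.24, so no difference was detectable at this depth.

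Cxcl16 and Cx3cl1 are the only chemokines made as transmembrane proteins that can both tether leukocytes and be shed. Cxcl16 binds Cxcr6 and serves as a scavenger receptor for oxidized lipoprotein (chr11:70453983-70459984, minus strand, 5 exons). It had 9.15, 8.50 and 7.91 FPKM in KO-labelled libraries, on 442, 352 and 337 reads, against 5.00, 4.89 and 4.94 FPKM in F/F-labelled libraries, on 367, 186 and 270 reads. The F/F-labelled values were nearly equal and all KO-labelled values lay far above them. The means were 8.52 ± 0.622 FPKM in KO-labelled and 4.94 ± 0.0519 FPKM in F/F-labelled libraries, a log2 fold change of 0.68 (SE 0.0611, interval 0.54 to 0.82, limma adjusted p = 6.9e-05), and voom gave 0.76 (interval 0.58 to 0.93).

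Cx3cl1, or fractalkine, binds Cx3cr1 on monocytes and natural killer cells (chr8:94772009-94782427, plus strand, 3 exons). Its values were 3.69, 4.36 and 4.64 FPKM in KO-labelled libraries and 4.23, 4.55 and 4.12 FPKM in F/F-labelled libraries. The groups overlapped fully, with both the lowest and the highest value in KO-labelled libraries. The log2 fold change was -0.021 (SE 0.0807, interval -0.20 to 0.16, limma adjusted p = 0.854). Between the transmembrane chemokines the intervals of the change, 0.54 to 0.82 for Cxcl16 and -0.20 to 0.16 for Cx3cl1, did not meet, though their difference was not tested.

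Of the adhesion molecules, Vcam1 binds the integrin formed by Itga4 and Itgb1 (chr3:116109949-116129688, minus strand, 9 exons). It had 1.25, 2.45 and 1.91 FPKM in KO-labelled libraries, on 84, 141 and 113 reads, against 0.432, 0.625 and 0.659 FPKM in F/F-labelled libraries, on 44, 33 and 50 reads. All KO-labelled libraries were higher, although the lowest and highest of them differed by a factor of 1.96. Vcam1 averaged 1.87 ± 0.600 FPKM in KO-labelled and 0.572 ± 0.123 FPKM in F/F-labelled libraries, a log2 fold change of 0.85 (SE 0.152, interval 0.50 to 1.2, limma adjusted p = 0.00273). On recovered reads the log2 fold change was 1.68 (interval 1.15 to 2.20), and the ratio of reads relative to library totals was 3.34.

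Icam1 binds the leukocyte integrin of Itgal and Itgb2 (chr9:21015985-21028817, plus strand, 7 exons). It had 4.93, 3.91 and 4.75 FPKM in KO-labelled libraries and 4.83, 5.99 and 5.45 FPKM in F/F-labelled libraries. KO-labelled replicate 1 reached past the lowest F/F-labelled library, so the groups overlapped. The means were 4.53 ± 0.546 FPKM in KO-labelled and 5.42 ± 0.578 FPKM in F/F-labelled libraries, with a log2 fold change of -0.22 (SE 0.0932, interval -0.43 to -0.0043, limma adjusted p = 0.0969). The authors' deposited table gives Icam1 a log2 fold change of -0.27 with an FDR of 0.0342 and so places it past the same threshold. Of the 8 tested genes, Icam1 is the only gene for which the limma call and the authors' deposited table differ.

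Csf1 (chr3:107741048-107760469, minus strand, 9 exons) was by far the most abundant of the 10 genes. It had 76.6, 77.8 and 75.3 FPKM in KO-labelled libraries against 59.3, 66.8 and 61.7 FPKM in F/F-labelled libraries, on 4585 to 7871 reads each. The groups did not overlap, and the KO-labelled values were within a factor of 1.03 of each other. Csf1 averaged 76.6 ± 1.24 FPKM in KO-labelled and 62.6 ± 3.81 FPKM in F/F-labelled libraries, a log2 fold change of 0.29 (SE 0.0471, interval 0.18 to 0.40, limma adjusted p = 0.00168). The change was close to the median absolute log2 fold change of all called genes, 0.27. For single genes an exact two-sided permutation test of 3 against 3 cannot go below p = 0.1, the value it gave for each of the 5 genes called higher.

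**Figure D3:**
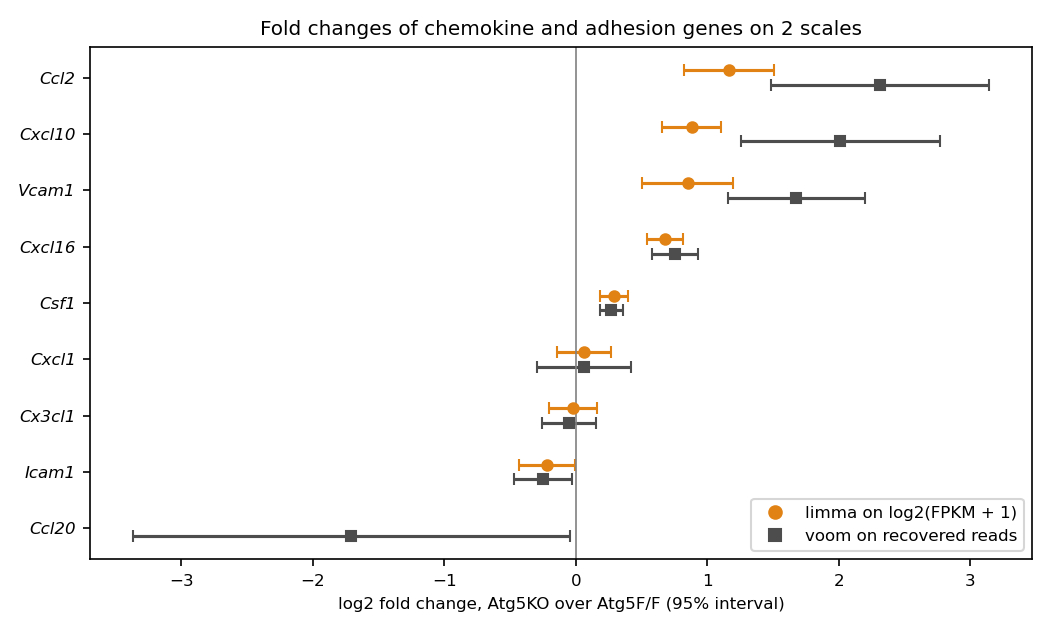
Log2 fold changes of KO-labelled over F/F-labelled libraries with 95% intervals (x axis), by limma on log2(FPKM + 1) (circles) and by voom on the recovered reads (squares). The low genes Ccl2, Cxcl10 and Vcam1 have larger log2 fold changes on the read scale (1.68 to 2.32) than on log2(FPKM + 1) (0.85 to 1.17), while Cxcl16 and Csf1 are alike on both. Neither Ccl20 nor Cxcl12 passed the FPKM filter: Ccl20 is drawn on the read scale alone, and Cxcl12, with 6 reads, was also under the minimum of 10 reads and is not drawn.

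By level, Csf1 led in both groups, while Cxcl16 came before Icam1 in KO-labelled libraries and overlapped it in F/F-labelled libraries. In KO-labelled libraries Csf1 (76.6 FPKM) stood above Cxcl16 (8.52), then came Icam1 (4.53), Cx3cl1 (4.23) and Cxcl1 (3.76), whose neighbouring values overlapped, and then Ccl2 (2.23), Vcam1 (1.87) and Cxcl10 (1.44), whose neighbouring values also overlapped. In F/F-labelled libraries Csf1 (62.6 FPKM) led, Icam1 (5.42) and Cxcl16 (4.94) overlapped, Cx3cl1 (4.30) and Cxcl1 (3.53) followed without overlap, and Vcam1 (0.572), Ccl2 (0.418), Cxcl10 (0.328) and Ccl20 (0.203) each overlapped the next. Csf1 made up 73.7% to 74.9% of the summed FPKM of the 10 genes in KO-labelled libraries and 75.7% to 76.4% in F/F-labelled libraries. Without Csf1 the sum was 25.7 to 27.4 FPKM in KO-labelled and 19.1 to 20.7 FPKM in F/F-labelled libraries.

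The spread within the KO-labelled group differed between genes. The coefficient of variation was 33.1% for Ccl2 and 32.1% for Vcam1, where counting error alone would give 17.7% and 9.42%, and both genes were lowest in replicate 1 and highest in replicate 2. Cxcl10, at a similar level, varied by 8.28% where counting gives 18.7%. Csf1 varied by 1.61% in KO-labelled libraries and by 6.09% in F/F-labelled libraries. Leaving out KO-labelled replicate 2 left Ccl2 at a log2 fold change of 0.99 and Vcam1 at 0.71, both still called.

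Few other chemokine genes reached a testable level. Of 31 further ligands, 17 had no read in any library and 3 could be tested, of which 1 was called higher and 0 lower (21.3% and 17.9% over all tested genes), with a median log2 fold change of 0.19 against 0.018 over all tested genes. The called gene was Ccl17, a ligand of Ccr4, with 2.56, 2.53 and 2.01 FPKM in KO-labelled libraries against 0.454, 0.376 and 0.697 FPKM in F/F-labelled libraries (log2 fold change 1.16, SE 0.113, limma adjusted p = 0.000104). It too passed the filter only through KO-labelled libraries. Ccl25 (5.67 FPKM in KO-labelled and 5.64 FPKM in F/F-labelled libraries) and Ccl27a (3.53 FPKM in KO-labelled and 2.96 FPKM in F/F-labelled libraries) were not called. Ccl28, a chemokine of mucosal epithelium that lay below the filter, had 10, 7 and 4 reads in KO-labelled libraries against 31, 16 and 20 reads in F/F-labelled libraries, or 0.0615 to 0.136 FPKM in KO-labelled and 0.240 to 0.276 FPKM in F/F-labelled libraries. These did not overlap, and voom gave a log2 fold change of -1.37 (adjusted p = 0.0106). Without the filter 2 of the further ligands were called higher and 1, Ccl28, lower (limma adjusted p = 0.00816). Ccl17 starts 28026 bases from Cx3cl1, which was not called, and Ccl22 on the other side had no read.

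The receptors for these chemokines and the leukocyte integrins that bind Vcam1 and Icam1 were at or near 0. Of 24 chemokine receptor genes, 9 had no read in any library, among them Ccr2, Cxcr2 and Cxcr3, and Cxcr4, Cxcr6, Ccr6 and Cx3cr1 stayed below 0.2 FPKM in every library. The exception was Ackr3, an atypical receptor that scavenges Cxcl12, the only one tested. It averaged 97.2 ± 8.95 FPKM in KO-labelled and 69.9 ± 4.11 FPKM in F/F-labelled libraries (log2 fold change 0.47, limma adjusted p = 0.000886). Xcr1, a receptor gene below the filter, had 63 reads in KO-labelled and 38 reads in F/F-labelled libraries, without overlap of the groups. Xcr1 was called higher with voom (log2 fold change 0.995, adjusted p = 0.0289) and without the filter (limma adjusted p = 0.0463). Of 8 integrin genes, Itgb1 alone was tested and was higher, at 344.4 ± 7.32 FPKM in KO-labelled and 292.7 ± 19.4 FPKM in F/F-labelled libraries (0.24, adjusted p = 0.00944), while Itga4 and Itgal did not reach 0.05 FPKM. Csf1r, the receptor for Csf1 and Il34, had 7.07 ± 0.642 FPKM in KO-labelled and 7.05 ± 0.614 FPKM in F/F-labelled libraries and was not called (adjusted p = 0.979).

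Among 20 other adhesion genes that leukocytes use, 19 were in the table and 6 were tested, of which 2 were higher and 0 lower (median log2 fold change 0.075), beside 21.3% and 17.9% of all tested genes. F11r, a tight junction molecule, had 72.9 FPKM in KO-labelled and 64.7 FPKM in F/F-labelled libraries (0.17, limma adjusted p = 0.0231), and Cd99l2, which helps leukocytes leave vessels, had 26.5 FPKM in KO-labelled and 23.1 FPKM in F/F-labelled libraries (0.19, adjusted p = 0.0207). No call was left without KO-labelled replicate 1, without F/F-labelled replicate 2 or without F/F-labelled replicate 3, and 1 was left without KO-labelled replicate 3. Cd44, the hyaluronan receptor, had 17.8 FPKM in both groups. Cd34, a sialomucin of the list that lay below the filter, had 0.948, 1.04 and 0.833 FPKM in KO-labelled libraries, on 133 reads in all, against 0.165, 0.0737 and 0.171 FPKM in F/F-labelled libraries, on 26 reads. The groups did not overlap, and voom gave a log2 fold change of 2.66 (adjusted p = 5.8e-06). Without the filter 4 genes of the list were called higher, Cd34 among them (limma adjusted p = 0.000513).

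Of 17 other colony-stimulating factors and cytokines, 9 were tested, with 4 higher and 2 lower, against 21.3% and 17.9% of all tested genes, and a median log2 fold change of 0.14. Csf3, the neutrophil growth factor, had 1.52 ± 0.324 FPKM in KO-labelled and 0.489 ± 0.111 FPKM in F/F-labelled libraries (0.75, limma adjusted p = 0.00148), and it passed the filter through KO-labelled libraries alone. Hbegf, a growth factor for epithelium, had 30.9 FPKM in KO-labelled and 23.7 FPKM in F/F-labelled libraries (0.37). The cytokine Il34, the other ligand of Csf1r, had 79.5 FPKM in KO-labelled and 67.1 FPKM in F/F-labelled libraries (0.24, adjusted p = 0.0177). The genes called lower, Spp1 and Mif, encode secreted cytokines. Spp1, or osteopontin, had 2685 ± 264.8 FPKM in KO-labelled and 3933 ± 275.6 FPKM in F/F-labelled libraries (-0.55, adjusted p = 0.00291), and Mif had 165 ± 21.7 FPKM in KO-labelled and 236 ± 11.7 FPKM in F/F-labelled libraries (-0.52, adjusted p = 0.00181). Without the filter on low values the call of Spp1 was lost at the same fold change (limma adjusted p = 0.112), which left 1 gene called lower. The call of Il34 was lost there too (limma adjusted p = 0.0503). Voom called Spp1 lower (-0.58, adjusted p = 1.65e-08) and Il34 higher (0.23, adjusted p = 0.00235). Il11, a cytokine gene below the filter, was called higher without the filter (limma adjusted p = 0.00187) and with voom (adjusted p = 0.00469). Without F/F-labelled replicate 3 the number called higher was 2. Il6 had no read in any library, and Tnf had 1.

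Among the regulators above these genes, 17 of 19 genes of the NF-kB list were tested, with 10 higher and 1 lower, against 21.3% and 17.9% of all tested genes, and a median log2 fold change of 0.29. Tnfaip3, a feedback inhibitor and NF-kB target, had 18.2 ± 1.27 FPKM in KO-labelled and 9.19 ± 1.02 FPKM in F/F-labelled libraries (0.92, limma adjusted p = 5.83e-05). Ikbke, a kinase of the pathway, had 7.05 FPKM in KO-labelled and 4.49 FPKM in F/F-labelled libraries (0.55), and Nfkbia, the inhibitor that NF-kB itself induces, had 24.0 FPKM in KO-labelled and 17 FPKM in F/F-labelled libraries (0.47). Bcl3, a nuclear cofactor, was the gene called lower, at 4.37 FPKM in KO-labelled and 6.37 FPKM in F/F-labelled libraries (-0.46, adjusted p = 0.00218). In Cxcl10 and Csf1 the NF-kB matches stand beside genes called higher, and in Cxcl1 beside a gene not called. Ccl20, which also has a match, was too low for the main limma test.

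Of 27 interferon response genes 16 were tested, with 9 higher and 2 lower and a median log2 fold change of 0.27, where 21.3% and 17.9% of all tested genes were higher and lower. Tap1, which carries peptides for class I presentation, had 14.9 ± 0.580 FPKM in KO-labelled and 10.6 ± 0.371 FPKM in F/F-labelled libraries (0.45, limma adjusted p = 0.000181). The guanylate-binding protein gene Gbp2 had 2.25 FPKM in KO-labelled and 1.46 FPKM in F/F-labelled libraries (0.40), and the transcription factor gene Irf1 had 5.35 FPKM in KO-labelled and 3.86 FPKM in F/F-labelled libraries (0.39). Isg20, an RNA exonuclease gene, was lower, at 3.28 FPKM in KO-labelled and 4.67 FPKM in F/F-labelled libraries (-0.40, adjusted p = 0.00460). The number called lower was 1 without KO-labelled replicate 1 or 3 and without F/F-labelled replicate 1 or 3. Over all alternatives 0 to 11 genes of the list were called higher and 0 to 3 lower. Below the filter, voom called Irf8 lower (71 reads in KO-labelled and 170 reads in F/F-labelled libraries, adjusted p = 0.00551). It called Psmb8 higher (90 reads in KO-labelled and 52 reads in F/F-labelled libraries, voom adjusted p = 0.0113). Cxcl9, the interferon-induced neighbour of Cxcl10 at 18559 bases, had no read in any library.

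Of 17 receptors and adaptors that feed these pathways 14 were tested, with 4 higher and 4 lower (over all tested genes 21.3% and 17.9%) and a median log2 fold change of 0.023. Tlr3, a sensor of double-stranded RNA, had 3.98 FPKM in KO-labelled and 2.58 FPKM in F/F-labelled libraries (0.48, limma adjusted p = 0.00165), and the interferon-gamma receptor chain gene Ifngr2 had 34.7 FPKM in KO-labelled and 25.4 FPKM in F/F-labelled libraries (0.43). The adaptor genes Ticam1 (7.30 FPKM in KO-labelled and 9.77 FPKM in F/F-labelled libraries, -0.37) and Mavs (24.1 FPKM in KO-labelled and 29.9 FPKM in F/F-labelled libraries, -0.30) were lower in KO-labelled libraries.

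For shedding and mRNA decay, 13 of 15 genes were tested, with 2 higher and 3 lower (median log2 fold change -0.016), set beside 21.3% and 17.9% over all tested genes. The sheddases of Cxcl16 and Cx3cl1 were not called: Adam10 had 36.3 FPKM in KO-labelled and 35.6 FPKM in F/F-labelled libraries and Adam17 had 15.7 FPKM in KO-labelled and 15.9 FPKM in F/F-labelled libraries. Rhbdf1, which helps Adam17 mature, had 21.1 FPKM in KO-labelled and 17.3 FPKM in F/F-labelled libraries (0.27, limma adjusted p = 0.000866), while the inhibitor Timp3 had 19.0 FPKM in KO-labelled and 23.7 FPKM in F/F-labelled libraries (-0.32, adjusted p = 0.0282) and the metalloprotease Mmp14 had 11.9 FPKM in KO-labelled and 14.9 FPKM in F/F-labelled libraries (-0.30, adjusted p = 0.00808). The call of Timp3 was lost without the filter (limma adjusted p = 0.0788) and kept with voom (adjusted p = 0.000535). Of the Zfp36 family of decay factors, Zfp36l1 was lower (58.4 FPKM in KO-labelled and 73.7 FPKM in F/F-labelled libraries, -0.33, limma adjusted p = 0.000852). Zfp36 (14.9 FPKM in KO-labelled and 15.6 FPKM in F/F-labelled libraries) and Zfp36l2 (33.2 FPKM in KO-labelled and 33.5 FPKM in F/F-labelled libraries) were not called. The decay genes Khsrp and Zc3h12a of the list were not called either. Mmp9, a metalloprotease gene below the filter, had 28 reads in KO-labelled and 6 reads in F/F-labelled libraries, without overlap of the groups. It was called higher with voom (log2 fold change 2.55, adjusted p = 0.00395) and without the filter (limma adjusted p = 0.00846).

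**Figure D4:**
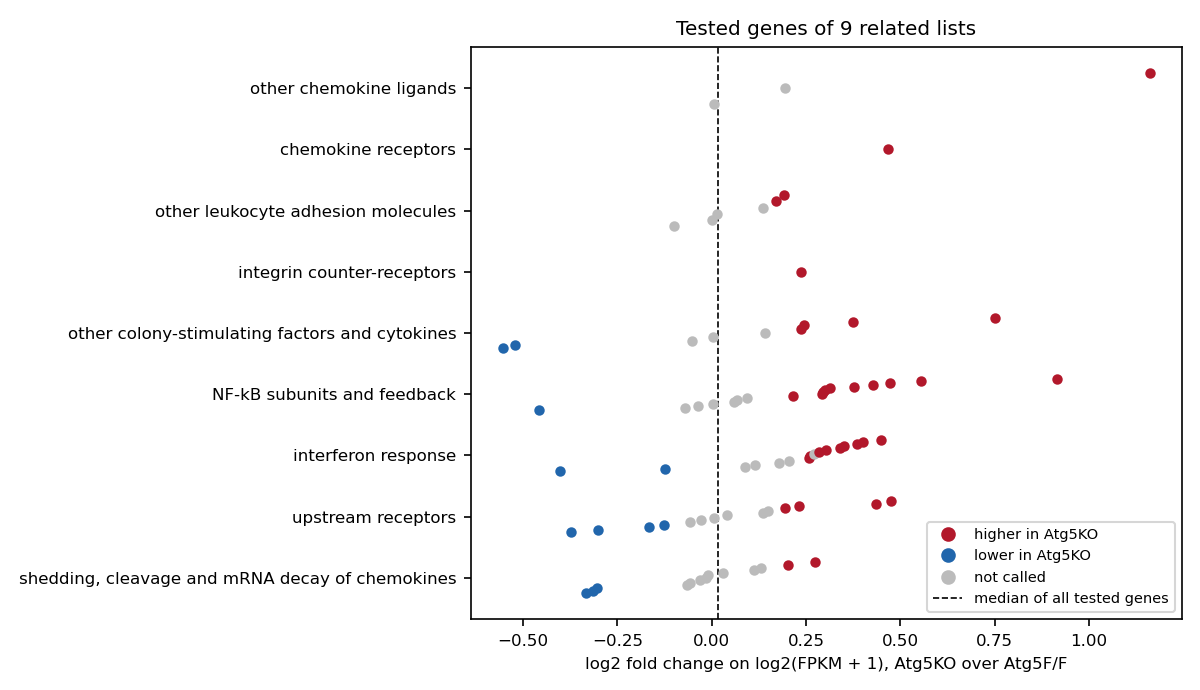
Log2 fold changes of KO-labelled over F/F-labelled libraries (x axis, log2(FPKM + 1) scale) for each tested gene of the 9 related lists, coloured by call; the dashed line is the median of all tested genes, 0.018. The NF-kB and interferon lists have most of their points right of the line (medians 0.29 and 0.27), while the receptor and the shedding lists lie on both sides of it.

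Markers of other cells were read beside these results, and their part in them was not tested. The summed FPKM of 18 leukocyte markers was 10.7 to 13 in KO-labelled and 11.5 to 13.6 in F/F-labelled libraries, of which Cd68 and Csf1r made up most, neither of them called. Laptm5, Adgre1, C1qa, C1qb, Itgam and Cd3e had no read, and Ptprc stayed below 0.05 FPKM. The sum of 10 fibroblast and mesangial markers was 179.1 to 227.4 FPKM in KO-labelled and 37.7 to 44.3 FPKM in F/F-labelled libraries, through Acta2 (202 FPKM in KO-labelled and 40.5 FPKM in F/F-labelled libraries) and Postn (8.01 FPKM in KO-labelled and 0.760 FPKM in F/F-labelled libraries), while Pdgfra, Pdgfrb, Col1a1, Col1a2, Col3a1, Dcn, Lum and Thy1 stayed below 0.3 FPKM. Col1a1 had 44 reads in KO-labelled and 19 reads in F/F-labelled libraries, without overlap of the groups. Voom called Col1a1 higher (log2 fold change 1.39, adjusted p = 0.0256). Endothelial markers summed to 7.74 to 9.56 FPKM in KO-labelled and 10.7 to 12.3 FPKM in F/F-labelled libraries, with Kdr at 5.53 FPKM in KO-labelled and 9.06 FPKM in F/F-labelled libraries, Flt1 at 2.12 FPKM in KO-labelled and 1.71 FPKM in F/F-labelled libraries and not called, and Pecam1 and Cdh5 below 0.22 FPKM. Proximal tubule markers summed to 351.5 to 380.3 FPKM in KO-labelled and 432.5 to 454.6 FPKM in F/F-labelled libraries. The most abundant, Pax8, had 240.9 FPKM in KO-labelled and 233.6 FPKM in F/F-labelled libraries and was not called. Ggt1 (54.4 FPKM in KO-labelled and 126.5 FPKM in F/F-labelled libraries), Hnf4a (3.76 FPKM in KO-labelled and 7.79 FPKM in F/F-labelled libraries) and Lrp2 (35.4 FPKM in KO-labelled and 54.4 FPKM in F/F-labelled libraries) were lower in KO-labelled libraries, and Aqp1 (28.6 FPKM in KO-labelled and 22.3 FPKM in F/F-labelled libraries) was higher. Below the filter, voom called Slc34a1, Slc13a3 and Slc5a12 lower (adjusted p = 0.012, 0.0022 and 0.0224). They had 1, 1 and 60 reads in KO-labelled and 25, 39 and 135 reads in F/F-labelled libraries, and their groups did not overlap. Cubn, Anpep and Slc5a2 were not called with voom, and Slc22a6 was at or near 0. The genes listed for distal and collecting duct summed to 396.2 to 442.9 FPKM in KO-labelled and 297.8 to 314.7 FPKM in F/F-labelled libraries. That sum came almost wholly from Krt8 and Krt18 (both higher in KO-labelled libraries) and Cdh16 (16.8 FPKM in KO-labelled and 82.1 FPKM in F/F-labelled libraries, lower). Umod, Slc12a1, Slc12a3, Aqp2 and Calb1 were near or at 0, so the sum does not by itself show cells of these segments.

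Of the genes within 50000 bases of a member, 12 were tested, with 3 higher, 1 lower and 8 not called, against 21.3% higher and 17.9% lower over all tested genes. Besides Ccl17, the genes called higher were Mthfd2l near Cxcl1 (log2 fold change 0.22, limma adjusted p = 0.0269, lost without the filter at 0.0626 and with voom at 0.058) and S1pr2 near Icam1 (0.30, adjusted p = 0.0141), both beside members that were not called. Ahcyl1, near Csf1, was lower (-0.18, adjusted p = 0.00339). Next to Ccl2, Ccl7 (8259 bases away) averaged 0.0493 FPKM in KO-labelled and 0.0595 FPKM in F/F-labelled libraries and Ccl11 had no read. Next to Cxcl1, the neutrophil chemokine gene Cxcl2 (10756 bases away) averaged 0.418 FPKM in KO-labelled and 0.490 FPKM in F/F-labelled libraries and was too low to test. Icam4 and Icam5, at 556 and 3256 bases from Icam1, stayed at or below 0.543 FPKM in all libraries. Overlapping genes on the opposite strand were low where the table held them: Art3, across Cxcl10, averaged 0.0126 FPKM in KO-labelled and 0.0333 FPKM in F/F-labelled libraries, and Zmynd15, across the start of Cxcl16, averaged 0.502 FPKM in KO-labelled and 0.329 FPKM in F/F-labelled libraries. The labels do not give the strand setting of the read counting, so reads of such pairs cannot be told apart. The antisense genes Gm43109 at Vcam1 and Gm47079 at Icam1, and Gm17268 across Ccl2, were not analysed here.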

How the data were processed

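Libraries were made from total RNA with a stranded mRNA kit, and all 6 carry the same batch date, per the labels' protocols. HISAT2 2.1.0, Trimmomatic 0.35, edgeR and featureCounts 1.4.6 are named, with the build GRCm38 (mm10), per the submitters' processing notes. Their annotation and strand setting are not given in these sources. FPKM per library were deposited by the authors for 24421 genes. The same deposited table holds the authors' log2 fold change, p-value, FDR and a score that was not used here. Its p-value column is named as adjusted, but Benjamini-Hochberg adjustment of those values gave the deposited FDR within 4.72e-07, so they were read as unadjusted.

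Low FPKM values step by whole reads. Whole reads were recovered for 18296 of the 18296 genes above 0 (100%, tolerance 0.0002 reads or 1.5e-09 relative), which gave the read totals. The smallest whole numbers that match were taken, so a gene above 0 in only 1 library always passed. Reads of such a gene, or reads that share a common factor, can be too few, which this percentage does not show. Calls come from limma 3.58.1 in R 4.3.3 (variance trend, two-sided) on log2(FPKM + 1) of the 11559 genes that reached 1 FPKM in 3 or more of 6 libraries, Atg5KO minus Atg5F/F, at a Benjamini-Hochberg adjusted p under 0.05. Of these genes 4530 were called (39.2%), 2457 higher and 2073 lower. Voom on the recovered reads, with at least 10 reads over the 6 libraries, tested 15098 genes and called 5477, with trimmed-mean scaling factors. Intervals on read ratios are exact and cover counting error only. The log2 values of libraries correlated at 0.994 to 0.997 within and 0.978 to 0.984 between groups (Pearson).

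The members and the gene lists were chosen with earlier results of these data known, and lists are described by counts and medians alone. Named were all members, Atg5, up to 4 called genes of each list with the largest absolute change, and neighbours within 50000 bases. Added for their roles, after their values were seen, were the cognate receptors and integrins, Csf1r, Il34 and the cytokines at or near 0. So were Cd44, Ccl22, Cxcl9, Adam10, Adam17, Zfp36, Zfp36l2, Khsrp and Zc3h12a. Added for their values were Cd34, Ccl28, Irf8, Psmb8, Slc34a1, Slc13a3, Slc5a12, Col1a1, Mmp9, Xcr1, Il11 and the uncalled genes Ccl25 and Ccl27a. Scripts in Python 3.11.15 were tested on simulated data. Alternatives were a replicate block, each library left out, other scaling, pseudocounts, filters, variance models and thresholds, a gene length correction and voom. A filter on the mean over all libraries and voom with the read minimum were added after the data were seen.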

Additional observations from a re-analysis of the deposited data

How the results depend on the processing

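Members called higher numbered 5 and members called lower 0 when any single library was left out, while genes called ran from 3265 to 4122. Median-ratio scaling, quantile normalization, both smaller pseudocounts, no filter, robust eBayes, no variance trend, length correction and voom also gave 5 and 0. With the filter of 5 FPKM 2 members were called higher, since Ccl2, Cxcl10 and Vcam1 were no longer tested. An adjusted p under 0.01 called 2678 genes, and an added minimum absolute log2 fold change of 0.5 called 793, without Csf1. The filter on the mean left Cxcl10 out, so 4 members were called. Over all alternatives the log2 fold change of Ccl2 was 0.99 to 2.36, of Cxcl10 0.83 to 2.14, of Vcam1 0.71 to 1.68, of Cxcl16 0.63 to 0.78 and of Csf1 0.24 to 0.34, and the adjusted p of Icam1 was 0.0573 to 0.266. Signs turned for uncalled genes only: Cx3cl1 was 0.055 without Atg5KO replicate 1, it was 0.012 without Atg5F/F replicate 2, and Cxcl1 was -0.024 without Atg5KO replicate 3. Their ranges over libraries left out were -0.078 to 0.055 and -0.024 to 0.11. The cause was not tested. With the replicate number as a block 4668 genes and 5 members were called, but same-numbered libraries deviated together only weakly (Pearson r 0.16, 0.075 and -0.023), so the numbers were not taken as pairs. Depth limits Ccl20 (14 reads in all) and Cxcl12 (6 reads).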
